A study of Sus scrofa with 6 samples.

Results

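The genes described here carry the antigen presentation machinery of the swine major histocompatibility complex (MHC), which in pigs is called SLA. The list held 10 members, the class I heavy chains SLA-1, SLA-2 and SLA-3, the class I light chain B2M, the peptide transporter subunit TAP1, the class II chains SLA-DRA, SLA-DRB1, SLA-DQA1 and SLA-DQB1, and the invariant chain CD74. Members were chosen by name and not by their level. Only 3 of the 10, B2M, TAP1 and SLA-DQB1, carried their own symbol in the deposited table. The others were placed by gene identifier or by position in the RefSeq annotation of the same assembly, Sscrofa11.1, and all 10 were found on 8 of the 31908 Ensembl genes. SLA-1, SLA-2 and SLA-3 fell on the same Ensembl gene and were therefore measured only as a sum, written SLA-1/SLA-2/SLA-3 below. That gene also covers the RefSeq position of SLA-5, and the gene of SLA-DQA1 covers that of SLA-DQB2. Both values can therefore hold other SLA loci.

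RNA was sequenced from the longissimus dorsi (LD) muscle of 6 castrated male Laiwu pigs, a fat-rich Chinese breed. The 3 S-H pigs (LW63, LW70 and LW119) had high and the 3 S-L pigs (LW82, LW88 and LW90) had low intramuscular fat (IMF). Each pig gave 1 library of RNA depleted of ribosomal RNA, and no pig was treated. The comparison asks which transcripts differ between muscle rich in IMF and muscle poor in it. Levels are FPKM, fragments per kilobase of transcript scaled to the fragments mapped in the library, summed over the transcripts of a gene. FPKM carry no read counts, so the number of reads behind a value is unknown and precision rests on the spread over 3 pigs a group. Values are always given in the order LW63, LW70, LW119 for S-H and LW82, LW88, LW90 for S-L, and means are followed by the SD over n = 3 pigs.

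Class I molecules consist of a polymorphic heavy chain and the invariant light chain B2M, are found on nearly all nucleated cells, and display peptides that the proteasome makes in the cytosol and TAP carries into the endoplasmic reticulum. Class II molecules pair an alpha with a beta chain (DRA with DRB1, DQA1 with DQB1), load peptides of endosomal origin after CD74 has been cut away, and are made mainly by professional antigen-presenting cells such as macrophages, dendritic cells and B cells. The heavy chains and the DRB1, DQA1 and DQB1 chains are among the most polymorphic proteins of mammals, so reads of an allele far from the reference can be mapped unequally, and the part this had in any value below was not tested. In whole muscle, fewer cells of a type and less RNA per cell cannot be told apart.

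The tissue label was borne out by its markers, with the muscle creatine kinase CKM between 1985 and 3939 FPKM in the 6 pigs. Transcripts without a symbol were taken to be in TPM and converted. Summed FPKM computed on that assumption was lowest in LW119 (638536) and lay between 776457 and 846661 in the other 5 pigs. Over the 12743 protein-coding genes tested, the median log2 fold change between S-H and S-L was 0.21, and it was 0.01 after division by median-ratio size factors, which set the median gene equal between pigs. Differences of the members are therefore given on both scales, those of other genes on FPKM unless the size-factor scale is named, and 0.21 is the level of no change relative to the median gene on the FPKM scale.

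All 8 genes were expressed in every pig. B2M had the highest mean level over the 6 pigs (238 FPKM), followed by CD74 (194 FPKM), SLA-1/SLA-2/SLA-3 (64.2 FPKM), SLA-DQA1 (31.3 FPKM), SLA-DRB1 (22.1 FPKM), SLA-DRA (18.4 FPKM), TAP1 (9.21 FPKM) and SLA-DQB1 (6.999 FPKM). Ranges over the pigs were apart for only 2 neighbours in this order, CD74 above SLA-1/SLA-2/SLA-3 and SLA-DRA above TAP1, and overlapped for the other 5. B2M exceeded CD74 in 5 of 6 pigs and SLA-DQA1 exceeded SLA-DRB1 in 4 of 6. The invariant chain thus stood well above the class II chains it accompanies, at 8.55 to 14.7 times the level of SLA-DRA. On the values as deposited, before CD74 was converted from TPM, this ratio was 10.5 to 23.0.

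**Figure D1:**
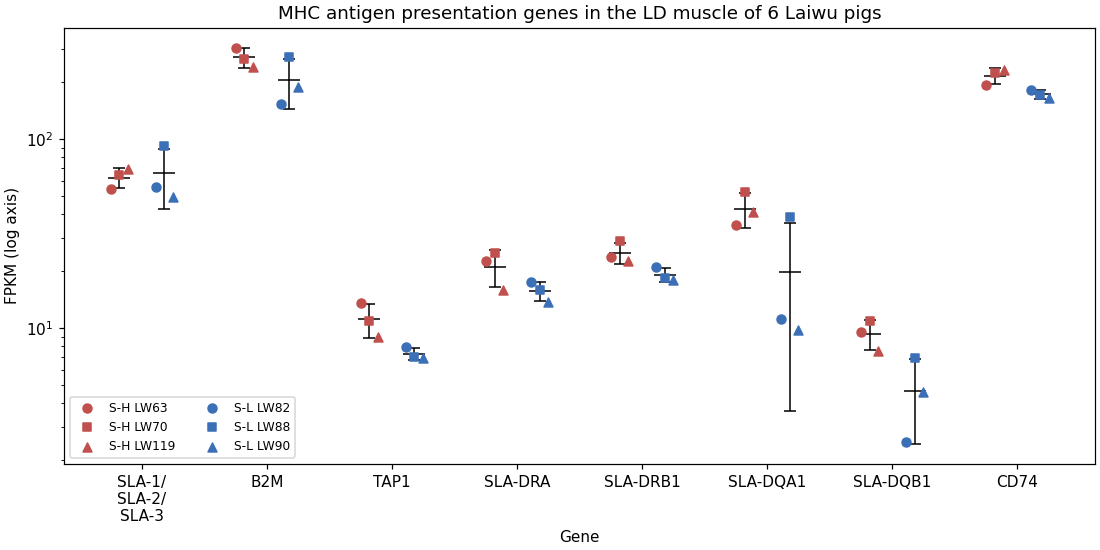
FPKM of the 8 genes (log axis) in each pig, with S-H pigs in red and S-L pigs in blue, and black bars for the group mean and SD (n = 3). CD74, TAP1, SLA-DRB1 and SLA-DQB1 of every S-H pig lay above those of every S-L pig, while SLA-1/SLA-2/SLA-3 was highest in the S-L pig LW88 (92.3 FPKM).

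None of the 8 genes passed the thresholds of the study (unadjusted p below 0.01 and at least 1 on the log2 scale) between S-H and S-L in limma, against 1.35% of all tested genes (172, of which 148, or 1.16%, were higher and 24, or 0.188%, lower in S-H). No gene of the 12743 had a limma adjusted p below 0.05, the lowest being 0.0765, and 1040 (8.16%) had an unadjusted p below 0.05. Among the 8, the unadjusted p was below 0.05 for 3 (SLA-DQA1, SLA-DQB1 and TAP1), all higher in S-H, where 7.09% of all tested genes were both. With size factors it was below 0.05 for SLA-DQA1 alone, at 0.0390 in limma, against 0.0553 for SLA-DQB1 and 0.156 for TAP1. The log2 fold change was above 0 for 7 of 8, against 74.1% of all genes, and its median was 0.42, against 0.21. After division by size factors the median was 0.20, against 0.01 for all genes. The 4 genes whose S-H and S-L pigs did not overlap (13.1% of all genes had the S-H pigs above and 1.7% the S-L pigs) did overlap after division by size factors, where none of the 8 was apart while 5.92% of all genes had the S-H pigs above and 6.58% the S-L pigs.

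**Figure D2:**
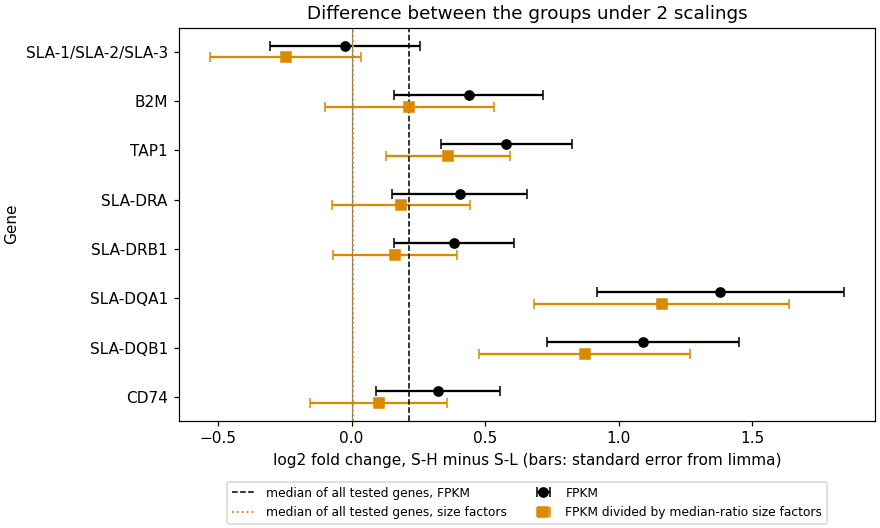
Log2 fold change of S-H against S-L for the 8 genes, with the standard error from limma, on FPKM (black) and after division by size factors (orange). Vertical dashed and dotted lines give the medians of all tested genes on the FPKM (0.21) and the size-factor scale (0.01), and SLA-DQA1 and SLA-DQB1 lay farthest to the right on both.

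The largest differences among the 8 were in the DQ chains, which together form the second classical class II molecule. SLA-DQA1, the DQ alpha chain (ENSSSCG00000001456, chromosome 7, 24951495 to 24995637), was at 35.01, 52.4 and 41.1 FPKM in S-H pigs and 11.2, 38.5 and 9.75 FPKM in S-L pigs. The S-L pigs were split, with LW82 and LW90 low and LW88 within the S-H range. Means were 42.8 ± 8.83 FPKM in S-H and 19.8 ± 16.2 FPKM in S-L, and the log2 fold change was 1.38 ± 0.46 (SE; unadjusted p = 0.0137, limma adjusted p = 0.579). On the size-factor scale the log2 fold change was 1.16. Without LW88 the log2 fold change was 2.01 and SLA-DQA1 passed the thresholds, at an adjusted p of 0.185 in limma, so 1 S-L pig decided the call. Without LW90 it was 1.02, the lowest value with 1 pig left out.

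SLA-DQB1, the DQ beta chain (ENSSSCG00000001457, chromosome 7, 24943107 to 24977297), was at 9.55, 10.9 and 7.59 FPKM in S-H and at 2.48, 6.91 and 4.56 FPKM in S-L pigs. LW88 was again the highest S-L pig, but below all S-H pigs. The log2 fold change was 1.09 ± 0.36 (SE; unadjusted p = 0.0128, limma adjusted p = 0.579), and it was 0.87 on the size-factor scale. Without LW88 it was 1.43 and SLA-DQB1 passed the thresholds too, and without LW82 it was 0.71 (unadjusted p = 0.0537).

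The DR chains, which form the other classical class II molecule, varied less. SLA-DRA, the nearly invariant DR alpha chain (ENSSSCG00000001453, listed in the table as HLA-DRA, chromosome 7, 24825053 to 24835160), was at 22.5, 25.02 and 15.9 FPKM in S-H and 17.5, 16.0 and 13.7 FPKM in S-L pigs. The groups overlapped through LW119, and the log2 fold change was 0.40 ± 0.25 (SE; adjusted p = 0.660, limma) and 0.18 on the size-factor scale. SLA-DRB1, the polymorphic DR beta chain (ENSSSCG00000001455, chromosome 7, 24871573 to 24914053), was at 23.9, 28.7 and 22.7 FPKM in S-H and 21.0, 18.5 and 18.01 FPKM in S-L pigs. The groups did not overlap, but the log2 fold change was small, at 0.38 ± 0.22 (SE; adjusted p = 0.648, limma), and on the size-factor scale it was 0.16 and the pigs overlapped. The value rested on the assembled transcripts too, since it was 0.87 (unadjusted p = 0.0144) without them and 0.59 on the values as deposited.

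CD74, the invariant chain that guides class II molecules to the endosome (ENSSSCG00000033262, chromosome 2, 151402212 to 151433844), was at 193, 223 and 233 FPKM in S-H and 182, 171 and 164 FPKM in S-L pigs. With its values converted from TPM, it was the steadiest of the 8 genes, with a highest level 1.42 times the lowest. Its within-group SD was 0.12 on the log2 scale, where SLA-DQA1 had 0.79 and the median of all tested genes was 0.38. The groups did not overlap on FPKM, and the log2 fold change was 0.32 ± 0.23 (SE; adjusted p = 0.694, limma) and 0.10 on the size-factor scale.

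Ratios between chains in the same pig are free of size factors, although those that set SLA-DQA1, SLA-DRB1, CD74 or SLA-1/SLA-2/SLA-3 against a gene with a symbol still hold the factor by which the former were converted from TPM. The DRB1 to DRA ratio lay between 1.06 and 1.43. Without assembled transcripts it was 0.849 in LW82 and 0.677 in LW90, below the other 4 pigs (1.06 to 1.43). The DQA1 to DRA ratio was 1.56, 2.10 and 2.59 in S-H and 0.641, 2.41 and 0.709 in S-L pigs, so LW82 and LW90 were low and LW88 was at the S-H level in this measure as well. The DQB1 to DRA ratio was 0.424, 0.436 and 0.477 in S-H and 0.142, 0.432 and 0.332 in S-L pigs, with LW82 lowest. Over the 6 ratios computed, the exact two-sided permutation p between groups was 0.2 to 0.9 (adjusted p 0.6 to 0.9), where 3 pigs against 3 cannot go below 0.1.

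The class I heavy chain gene that holds SLA-1, SLA-2 and SLA-3 (ENSSSCG00000001229, chromosome 7, 22823841 to 22977106, 15 transcripts) was at 54.2, 64.4 and 69.2 FPKM in S-H and 55.6, 92.3 and 49.6 FPKM in S-L pigs. LW88 was highest and LW90 lowest, so the S-L pigs spanned all S-H pigs. The log2 fold change was -0.03 ± 0.28 (SE; adjusted p = 0.983, limma), the only one of the 8 below 0, and -0.25 on the size-factor scale. Its direction was not fixed, since it was 0.25 without LW88 and 0.07 without LW63, but -0.20 without LW90.

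B2M, the light chain of every class I molecule (ENSSSCG00000004687, chromosome 1, 126829645 to 126996190), was at 305, 266 and 242 FPKM in S-H and 153, 272 and 189 FPKM in S-L pigs. LW88 again lay among the S-H pigs and LW82 was lowest. The log2 fold change was 0.44 ± 0.28 (SE; adjusted p = 0.663, limma) and 0.22 on the size-factor scale. It was 0.25 without LW82 and 0.66 without LW88 (unadjusted p = 0.0453). RefSeq places 2 copies of B2M inside this Ensembl gene, and transcripts at the second copy (126865767 to 126878501) carried 83.9% to 92.0% of its FPKM while those at the first (126837721 to 126844043) carried 6.76% to 13.4%. Near-identical copies share reads, and the study kept only reads that mapped to a single place, so this split and the B2M total are uncertain.

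TAP1, a subunit of the transporter that feeds peptides to class I molecules (ENSSSCG00000025618, chromosome 7, 25062773 to 25071862), was at 13.5, 10.9 and 8.94 FPKM in S-H and 7.96, 7.02 and 6.95 FPKM in S-L pigs. All S-H pigs were above all S-L pigs, although LW119 and LW82 were close. The log2 fold change was 0.58 ± 0.25 (SE; unadjusted p = 0.0403, limma adjusted p = 0.608), and 0.36 on the size-factor scale, where the pigs overlapped. The ratio of SLA-1/SLA-2/SLA-3 to B2M, which holds the uncertainty of the B2M total, ran from 0.178 in LW63 to 0.362 in LW82. It overlapped between groups.

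Pigs of 1 group differed among themselves, in part with the scale. On FPKM LW90 was the lowest pig for 6 of the 8 genes and LW82 for the other 2, while LW70 was the highest for 4, LW63 for 2, and LW119 and LW88 for 1 each. LW90 had the smallest size factor (0.806), and after division by it LW90 was lowest for 0 of the 8, LW82 for 3, LW63 and LW88 for 2 each and LW119 for 1, while LW70 was highest for 5. Relative to the mean over pigs, the class II genes on FPKM averaged -0.54 in LW82 and -0.55 in LW90 on the log2 scale but 0.02 in LW88, and 0.29, 0.57 and 0.21 in LW63, LW70 and LW119. With size factors they averaged -0.56 in LW82, -0.25 in LW90 and 0.07 in LW88. The class I genes averaged -0.31 in LW82, -0.33 in LW90 and 0.15 in LW88 on FPKM, and -0.34, -0.02 and 0.19 with size factors. These averages were thus low in LW82 on both scales, and in LW90 for class I on FPKM alone. The class II average of LW82 came mainly from SLA-DQA1 (11.2 FPKM) and SLA-DQB1 (2.48 FPKM). For SLA-DRA, SLA-DRB1 and CD74, LW82 was the highest S-L pig on FPKM (17.5, 21.0 and 182 FPKM). Among the class I genes LW82 was lowest only for B2M.

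Below the gene level the members were uneven. Of 25 member transcripts above 5 FPKM in some pig, 10 (40.0%) were below 0.01 FPKM in another pig, against 13.4% of 8889 transcripts in the whole table. They were 5 of 10 transcripts of SLA-1/SLA-2/SLA-3, all 4 of SLA-DRB1 and 1 of 2 of TAP1, and none of B2M, SLA-DRA, SLA-DQA1, SLA-DQB1 or CD74. Both cut-offs were chosen after the values were seen.

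SLA-DRB1 showed this most fully. The annotated transcript ENSSSCT00000001612 was at 7.79, 16.7 and 11.5 FPKM in S-H pigs and 8.53 FPKM in LW88, but was listed at 0 in LW82 and at 2.54 FPKM in LW90. In LW82 the largest transcript was ENSSSCT00000052939 with 13.8 FPKM, for which the other 5 pigs had 0. The assembled transcript TCONS_00248413 was found only in LW82 (6.18 FPKM) and LW90 (8.70 FPKM). Different transcripts thus carried SLA-DRB1 in different pigs, yet their sum stayed between 18.01 and 28.7 FPKM. The comparison of the groups changed with this choice, since the transcript with the highest mean had a log2 fold change of 3.13 where the gene had 0.38.

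Between the groups, 4 of 44 tested member transcripts passed the same thresholds, against 1.25% of 40336 tested transcripts (0.751% higher and 0.496% lower in S-H). ENSSSCT00000033587 of SLA-DRB1 was at 2.86, 3.29 and 3.25 FPKM in the S-H pigs and listed at 0 in all 3 S-L pigs. Its adjusted p was 0.00967 in limma. It reached the mean needed for testing only through the S-H pigs. Every S-L value sat at the pseudocount with no spread, so that p rests on this floor and does not measure a spread in S-L. This transcript made up a minor part of SLA-DRB1, whose sum did not pass the test. ENSSSCT00000045563 of SLA-1/SLA-2/SLA-3 was at 10.4, 11.6 and 7.21 FPKM in S-H and 0.907, 0 and 0.0237 FPKM in S-L pigs (adjusted p = 0.232, limma). TCONS_00240042 of the same gene was at 3.36, 4.69 and 0.995 FPKM in S-H and 0.128, 0 and 0 FPKM in S-L pigs (adjusted p = 0.206, limma). It too reached the mean needed for testing only through the S-H pigs, and its p rests in part on the floor. The last was TCONS_00240470 of SLA-DQA1, an assembled transcript that lies at the SLA-DQB1 locus, and all 4 were higher in S-H. With 1 pig left out, 3 to 8 member transcripts passed, 8 of them without LW88.

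**Figure D3:**
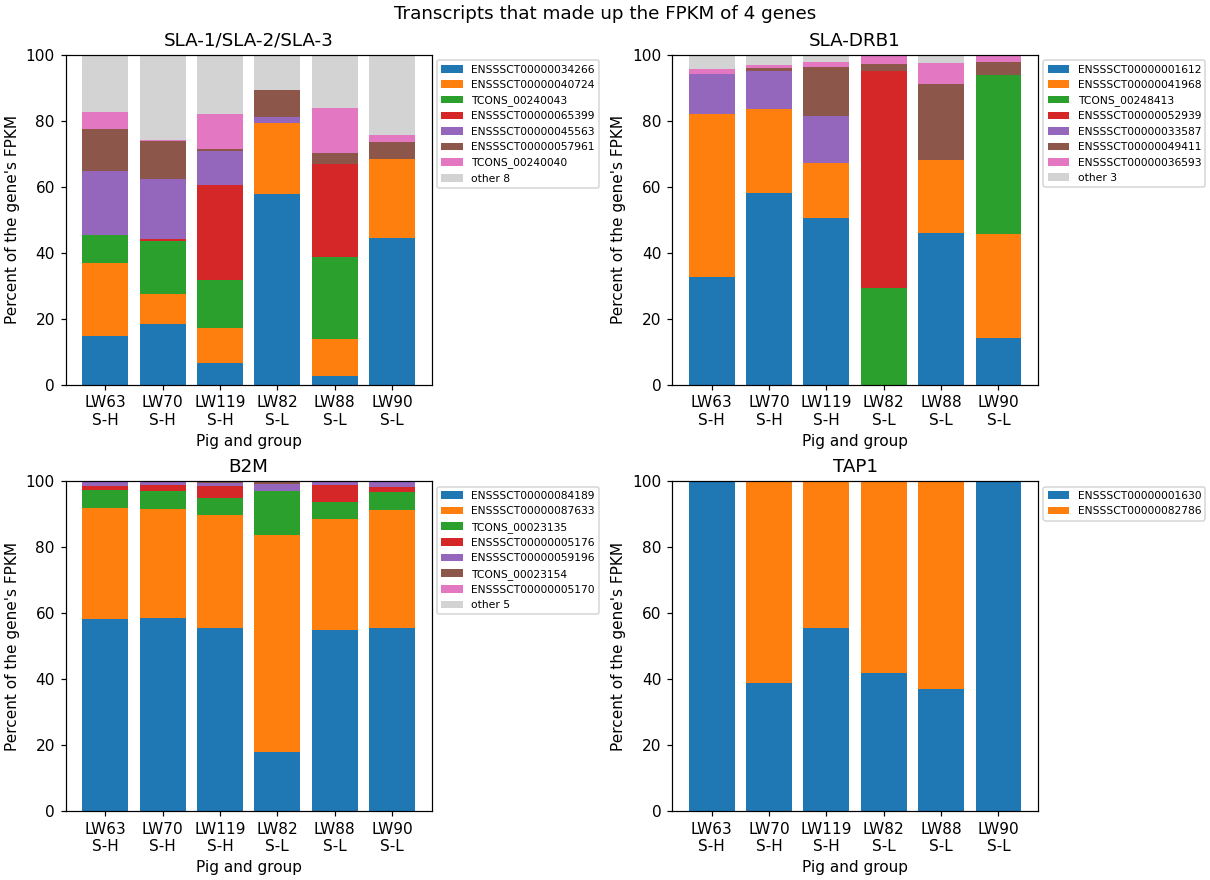
Percent of the FPKM of SLA-1/SLA-2/SLA-3, SLA-DRB1, B2M and TAP1 carried by each transcript in each pig, with the transcripts of highest mean in colour and the remainder in grey. The leading transcript of SLA-DRB1 and of SLA-1/SLA-2/SLA-3 differed between pigs, and LW63 and LW90 had all TAP1 on 1 transcript.

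TAP1 and B2M showed the same in part. All FPKM of TAP1 was on ENSSSCT00000001630 in LW63 (13.5 FPKM) and LW90 (6.95 FPKM), and ENSSSCT00000082786 was listed at 0 there but at 3.96 to 6.65 FPKM in the other 4 pigs. For B2M, ENSSSCT00000084189 was at 27.6 FPKM in LW82 and at 105 to 177 FPKM in the other 5 pigs, while ENSSSCT00000087633 was at 67.6 to 103 FPKM in all 6. A less abundant transcript, ENSSSCT00000005176, was also low in LW82 (0.206 FPKM against 2.99 to 13.95 FPKM in the other 5 pigs). SLA-DQA1 differed from this, since ENSSSCT00000041818 was its largest transcript in every pig and carried 68.4% to 93.9% of it.

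The gene sum left out other rows at the same place. Inside the interval of ENSSSCG00000001229 the table listed 94 transcripts, of which the assembled transcript of locus XLOC_158895 (22825007 to 22827966, within the RefSeq interval of SLA-1) was the most abundant. It was at 324, 212 and 155 FPKM in S-H and 103, 180 and 208 FPKM in S-L pigs, or 50.5% to 70.3% of all FPKM in the interval, where the Ensembl gene had 11.7% to 28.2%. Its log2 fold change was 0.49 ± 0.38 (SE; adjusted p = 0.859, limma) and the groups overlapped. The table has no strand, so whether XLOC_158895 and the overlapping gene ENSSSCG00000041364 (28.2 to 66.5 FPKM) run along or against the heavy chains is not known here. The sum over all rows was 461, 334 and 302 FPKM in S-H and 197, 356 and 320 FPKM in S-L pigs, and it overlapped as well.

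**Figure D4:**
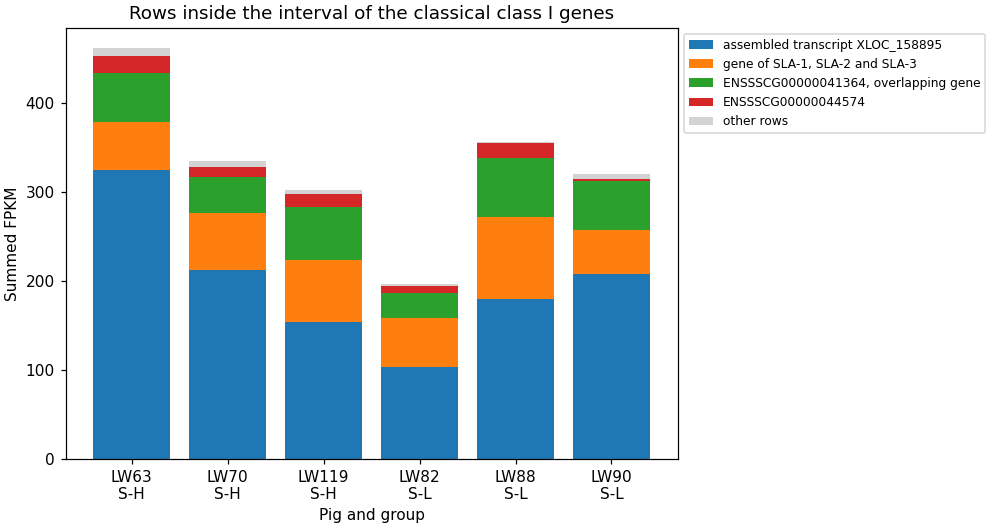
Summed FPKM of all rows inside the interval of the classical class I genes, by pig. XLOC_158895 (blue) was the largest part in every pig, and the total was highest in LW63 (461 FPKM) and lowest in LW82 (197 FPKM).

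Genes of the pathway outside the 10 members were counted from lists. Of the other class I heavy chains, 4 were tested, none passed the thresholds, and the median log2 fold change was 0.58 (0.36 on the size-factor scale). FCGRT, the heavy chain of the neonatal Fc receptor, which also pairs with B2M, was at 57.6, 69.5 and 59.4 FPKM in S-H and 33.3, 53.8 and 32.7 FPKM in S-L pigs (log2 fold change 0.67 ± 0.26 SE, adjusted p = 0.596, limma, and 0.45 with size factors). LW88 was again the S-L pig nearest to the S-H pigs. HFE, an iron-regulating class I-like chain, had a log2 fold change of 0.37 (0.15 with size factors), and SLA-8, a nonclassical heavy chain, 0.49 (0.27). The gene at the SLA-11 locus was at 53.4 to 99.2 FPKM in S-H and 38.5 to 52.6 FPKM in S-L pigs. Of all tested genes, 13.1% had the S-H pigs above in this way. The gene was not matched to a protein-coding RefSeq gene by the overlap rule and so was not tested.

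Class I peptide loading and supply held 13 tested genes, of which none passed the thresholds and 13 had a log2 fold change above 0, against 74.1% of all genes (12 on the size-factor scale). The median was 0.49 on FPKM and 0.28 with size factors. In 7 of them (TAP2, TAPBPL, ERAP1, PSMB8, PSMB9, PSMB10 and PSME1) the lowest S-H pig exceeded the highest S-L pig (13.1% of all genes), and in 5 this held with size factors (5.92% of all genes). The chaperones CALR, CANX and PDIA3, which help to fold heavy chains, were the most abundant, with log2 fold changes of 0.46, 0.41 and 0.68 (0.24, 0.19 and 0.45 with size factors) and overlapping groups. PSME1, a subunit of the proteasome activator PA28, was at 27.2, 31.7 and 24.4 FPKM in S-H and 17.8, 11.3 and 15.3 FPKM in S-L pigs (log2 fold change 0.92 ± 0.25 SE, adjusted p = 0.550, limma, and 0.70 with size factors). PSMB8, PSMB9 and PSMB10, the catalytic subunits of the immunoproteasome, had 0.72, 0.45 and 0.93 (0.50, 0.24 and 0.71 with size factors) and are named, like the other genes of that count, after their values were seen.

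Class II loading and regulation held 17 tested genes, of which 2 passed the thresholds, both lysosomal proteases and both higher in S-H, as were 1.16% of all genes. CTSS, the cathepsin that trims CD74, was at 20.3, 21.0 and 17.7 FPKM in S-H and 8.75, 13.1 and 8.02 FPKM in S-L pigs (log2 fold change 1.005 ± 0.26 SE, adjusted p = 0.537, limma). With size factors CTSS no longer passed, at a log2 fold change of 0.78 and an unadjusted p of 0.0121. CTSL, a related cathepsin, was at 7.76, 3.39 and 9.58 FPKM in S-H and 1.33, 3.06 and 1.07 FPKM in S-L pigs (log2 fold change 1.89 ± 0.46 SE, adjusted p = 0.536, limma, and 1.67 with size factors). CTSB, the most abundant of the list, had a log2 fold change of -0.37 with pigs from 4.78 to 35.6 FPKM. RFXANK, a subunit of the factor that binds class II promoters, had 0.71 (unadjusted p = 0.0127, and 0.49 with size factors) and NFYC 0.07 (-0.15 with size factors). CIITA, the master regulator of class II transcription, is named although its level was low, at 0.826 to 1.57 FPKM with a log2 fold change of 0.29 (0.09 with size factors).

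Interferon-induced genes, many of which rise with class I under interferon, lay at the median of all genes. Of 23 tested, none passed the thresholds, and the median log2 fold change was 0.22 (0.01 with size factors). IFIT1 had 0.79 and IRF8 0.04, which were 0.57 and -0.18 with size factors. IFI6 was at 114 FPKM in LW88 and at 8.46 to 47.9 FPKM in the other 5 pigs, and LW88 was also the pig with the highest SLA-1/SLA-2/SLA-3.

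**Figure D5:**
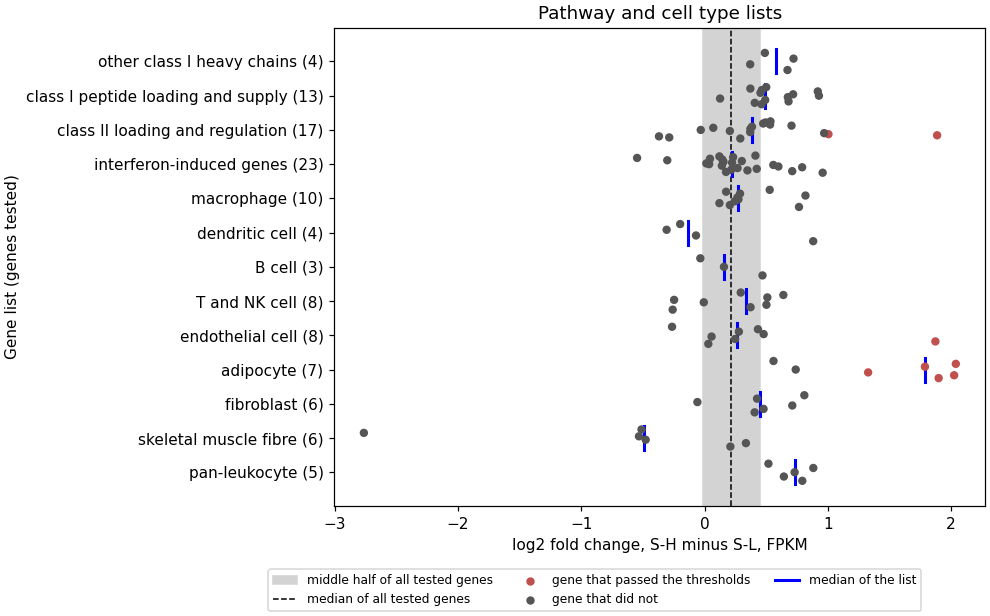
Log2 fold change of S-H against S-L on FPKM for every tested gene of each pathway and cell type list, with blue bars for list medians, a dashed line for the median of all tested genes (0.21) and a grey band for the middle of their distribution between the quartiles. Red points passed the thresholds, and the adipocyte list stood highest, at a median of 1.79.

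Markers of the cells that could carry these transcripts were read beside the members, and their part in the differences was not tested. The 5 pan-leukocyte genes summed to 24.3 to 53.8 FPKM in S-H and 18.4 to 24.9 FPKM in S-L pigs, with a median log2 fold change of 0.73 (0.51 with size factors) and none past the thresholds. The 10 tested macrophage genes had a median of 0.27 (0.06 with size factors) and sums of 52.6 to 121 FPKM in S-H and 55.9 to 95.1 FPKM in S-L pigs, with none past the thresholds and LYZ listed at 0 in all 6 pigs. LW70 had the lowest macrophage sum and the highest SLA-DRA, SLA-DRB1, SLA-DQA1 and SLA-DQB1, whereas LW90 had the next lowest macrophage sum and the lowest SLA-DRA, SLA-DRB1 and SLA-DQA1 on FPKM. Dendritic cell markers were low, with 4 tested, a median of -0.13 (-0.32 with size factors), and CD1E and CCR7 below a mean of 0.1 FPKM. Among 7 B cell genes, CD79A was at 88.9 to 145 FPKM, whereas MS4A1, PAX5 and POU2AF1 had means below 0.1 FPKM, so CD79A was out of proportion to these defining markers. T and NK cell genes summed to 2.98 to 5.45 FPKM in S-H and 2.57 to 3.97 FPKM in S-L pigs, with 8 tested and none past the thresholds.

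Lists of non-immune cells were read in the same way. Of 7 tested adipocyte genes, 5 passed the thresholds, all higher in S-H (ADIPOQ, PLIN1, FABP4, LEP and CIDEC), where 1.16% of all genes did, and FABP4 did not pass with size factors (unadjusted p = 0.0168). The list had a median of 1.79 (1.60 with size factors), and the list summed to 535 to 1458 FPKM in S-H and 359 to 445 FPKM in S-L pigs. Of 8 endothelial genes, 1 passed, the tight junction gene CLDN5 (log2 fold change 1.87 ± 0.39 SE, adjusted p = 0.416, limma, and 1.65 with size factors). The endothelial median was 0.26 (0.04 with size factors), and the sums of 154 to 166 FPKM in S-H and 95.9 to 139 FPKM in S-L pigs did not overlap on FPKM but did with size factors (136 to 168 and 119 to 137). Endothelial cells of the pig also carry class II molecules. The 6 fibroblast genes had a median of 0.45 (0.23 with size factors) and the 6 tested genes of the muscle fibre -0.49 (-0.72), with none past the thresholds in either.

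The tested genes whose profile over the 6 pigs was most like the members were found by the root mean square difference of centred log2 values. For the class I genes they were NFYB (0.045), CXXC1 (0.050), PCID2 (0.052), NCAPH2 (0.054) and PDSS1 (0.055). For the class II genes they were FCGRT (0.066), DTNBP1 (0.108), ZNF444 (0.112), TMSB4X (0.115) and NSD2 (0.115), so FCGRT stood nearer to the class II profile than any other gene compared. With 6 pigs and 12743 genes, such closeness is a description.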

How the data were processed

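LD muscle of 3 S-H and 3 S-L pigs was sequenced with 1 library per pig, and groups were taken from the labels. As the study describes, the authors made strand-specific libraries depleted of ribosomal RNA, aligned filtered reads with HISAT2, kept uniquely mapped reads for quantification (which drops reads shared by near-identical copies) and assembled transcripts with StringTie. The deposited values are FPKM that the authors computed per transcript and pig. The 21104 Ensembl transcripts without a symbol were taken to be in TPM, which is an inference from their values. They were converted with 1 factor per pig (0.639 in LW119 to 0.847 in LW82). No scaling between libraries is stated.

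FPKM was summed per Ensembl gene. Gene type and position came from RefSeq, where 13901 genes matched by symbol and 4666 by position (reciprocal overlap of 50% or more). Genes with a mean of at least 0.1 FPKM were tested in limma 3.58.1 (R 4.3.3) with a variance trend on log2(FPKM + 0.1), so fold changes are on that scale, which understates changes of low genes. Calls followed the thresholds of the study, unadjusted p below 0.01 with a change of 1 or more on the log2 scale, with Benjamini-Hochberg adjustment over all tested genes. The study used a count test, which FPKM do not allow. The fits were tested on simulated data in which 200 features were changed by 2 in either direction on the log2 scale. They recovered 90.0% of the changed genes and 62.5% of the changed transcripts. They also called 0.66% of unchanged genes and 1.13% of unchanged transcripts, where 1.35% of genes and 1.25% of transcripts were called in the data. Unchanged features were simulated with no shift between the groups, whereas the median gene in the data was shifted by 0.21. The shares called in the simulation and in the data are therefore not directly comparable. Ratios were compared by exact two-sided permutation in scipy 1.17.1.

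The members and gene lists were chosen with earlier results of these data known. From each list at most 4 genes of highest mean FPKM and any called gene were to be named, and some lists name fewer or none of these. Other names, among them CIITA, LYZ and markers with means below 0.1 FPKM, fall outside that rule and were chosen afterwards. Some listed genes are not reported here by name. The share of each class I heavy chain in their sum, which was planned, could not be made because all 3 share a gene. The gene at the TAPBP locus carries another symbol in the table and was not counted. Nothing in the labels says more of the pigs than 1 animal per library, and p-values measure the spread between these animals.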

Additional observations from a re-analysis of the deposited data

How the results depend on the processing

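The 172 genes called among all tested became 77 with a pseudocount of 1 and 261 on TPM, and 86 to 261 with 1 pig left out. Of the calls, 148 were higher and 24 lower in S-H; after median-ratio scaling 82 of 137 and after quantile normalization 69 of 131 were higher. The members called, none in the reported setting, were 2 on TPM and 0 to 2 with 1 pig left out, both times SLA-DQA1 and SLA-DQB1, and none in the other 17 settings. The member transcripts called, 4 as reported, ranged from 3 to 8 with 1 pig left out. The median log2 fold change of the members was 0.42, 0.88 when each gene was represented by its transcript of highest mean, and 0.37 to 0.56 with 1 pig left out. SLA-1/SLA-2/SLA-3 turned positive on TPM (0.11), on the values as deposited (0.060), and without S-H replicate 1 (0.07) or S-L replicate 2 (0.25), within a range of -0.20 to 0.25 with 1 pig left out. Without assembled transcripts SLA-DRB1 went from 0.38 to 0.87 and its log2 ratio to SLA-DRA from -0.02 to 0.46. The causes were not tested. No paired analysis was possible because the labels give no number that ties an S-H pig to an S-L pig. Depth is unknown from FPKM, and with 3 pigs a group a ratio cannot reach an exact p below 0.1.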
